A study of Arabidopsis thaliana with 9 samples.

Results

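Leaves of *Arabidopsis* plants that overexpress the cassava glutaredoxin gene *MeGRXC15* (*MeGRXC15*-OE) were compared directly with leaves of plants labelled as overexpressing another cassava gene, MeGRX360 (MeGRX360-OE). The comparison takes the 3 arrays titled MeGRX232-OE (lines 3, 9 and 12), which the methods section equates with *MeGRXC15* overexpression, and the 3 arrays titled MeGRX360-OE (lines 5, 11 and 20), 6 of the 9 arrays in the series. The other 3 arrays, from plants that carry the empty vector pG1300, took no part in the test, and their values are given beside those of named genes as a background only. RNA came from mature leaves of 45-day-old transgenic plants grown under normal conditions with 12 h of light and 12 h of dark at 22 °C, and was hybridized to the Affymetrix ATH1 array. In *MeGRXC15*-OE a constitutive CaMV 35S promoter drives MeGRXC15 fused to GFP in the Col-0 background, and each array comes from 1 homozygous line. The construct and background of MeGRX360-OE are not described in the sources used here. The array holds probe sets for *Arabidopsis* genes, so the levels of both cassava transgenes were not measured, and how strongly each line overexpresses its gene is not part of the comparison.

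Glutaredoxins are small enzymes that use glutathione to reduce disulfides, and the CC-type class, called ROXYs in *Arabidopsis*, is found in land plants and carries a pair of neighbouring cysteines in its active site. *Arabidopsis* members bind TGA transcription factors and are known from flower development and from the crosstalk of salicylic acid with jasmonate and ethylene defence. A direct comparison of plants with different CC-type glutaredoxins asks which leaf transcripts depend on which glutaredoxin is overexpressed, rather than on the presence of any such transgene.

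The study's quantitative PCR primers for both labels are shown because they are the only designed sequences that tie the label MeGRX360 to a protein. Each is written 5′ to 3′, with capitals for the run of 18 coding bases (6 residues) whose translation occurs in a listed cassava glutaredoxin, on the sense strand for forward and on the antisense strand for reverse primers.
MeGRX232-RT-pF: AGAGTTACGCAATTGGCAtc
MeGRX232-RT-PR: gcTTGTTCTATTTCCCTTCC
MeGRX360-RT-pF: ACACGCATCCCGTCCACCgc
MeGRX360-RT-pR: cGAGTACATTTCTACCATTa
Among 39 cassava glutaredoxin proteins, the MeGRX232 forward primer matched residues 3 to 8 of MeGRXC15 only, and the reverse primer matched residues 49 to 54 of MeGRXC15 and of 1 further protein. Both MeGRX360 primers matched MeGRXC18 only, at residues 9 to 14 and 32 to 37. That MeGRX360 is MeGRXC18 is therefore a match of primer sequences and is not stated in the sources. MeGRXC15 has 101 residues and MeGRXC18 has 150, and 46 of 100 aligned residues (46.0%) were identical. Both carry the same 4 active-site residues, which start at residue 21 of MeGRXC15 and at residue 63 of MeGRXC18. The closest listed *Arabidopsis* protein was AT5G18600 for MeGRXC15 (78 of 101 residues identical, 77.2%) and AT1G28480, the protein of *GRX480*, for MeGRXC18 (74 of 137, 54.0%).

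Few probe sets passed the adjusted threshold between the 2 kinds of plants, which with 3 lines in each group does not show that few transcripts differ. Values are intensities on a linear scale, differences are log2 of *MeGRXC15*-OE minus MeGRX360-OE with their standard error (SE), and limma was fitted to 22746 probe sets (sets of oligonucleotides, each set designed against a transcript) with p-values adjusted by the Benjamini-Hochberg method. At an adjusted p under 0.05, 5 probe sets were called (0.0220%), 1 of them higher (0.00440%) and 4 of them lower (0.0176%) in *MeGRXC15*-OE. At a fold change over 2 and an unadjusted limma p under 0.05, 461 probe sets passed (2.03%), 257 higher (1.13%) and 204 lower (0.897%), and in 393 of these the 3 arrays of one group did not overlap those of the other. Over all probe sets, the arrays of the groups did not overlap in 3708 (16.3%), 1756 higher (7.72%) and 1952 lower (8.58%). The median difference over all probe sets was -0.00 and the median SE 0.16. By the unadjusted p alone, 2632 probe sets stood under 0.05 (11.6%), 1256 of them higher (5.52%) and 1376 lower (6.05%). With 3 arrays in each group the number of lines limits the precision, and the p-values measure the spread between separate lines. In what follows, a transcript is said to rise or fall only if its adjusted p was under 0.05. All other genes are given by their values.

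**Figure D1:**
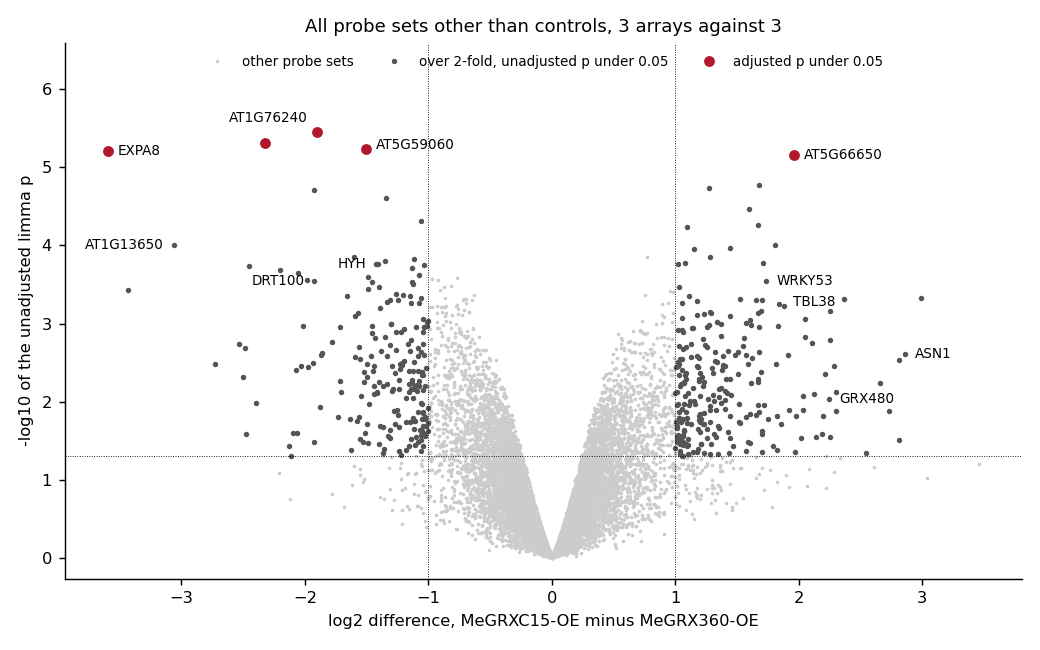
The log2 difference (*MeGRXC15*-OE minus MeGRX360-OE) of each of 22746 probe sets is plotted against -log10 of its unadjusted limma p-value, with dotted lines at both thresholds. The 5 red points have an adjusted p under 0.05, and the 456 dark grey points pass only the fold and the unadjusted p.

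Some array signals outside the leaf transcripts also differed between the groups. The probe set for 25S ribosomal RNA read 590.0, 616.4 and 430.3 in *MeGRXC15*-OE, against 853.1, 1028 and 1073 in MeGRX360-OE, without overlap, while the vector arrays ran lower, at 278.7 to 350.4; its part in the differences below was not tested. The ratio of the 3′ to the 5′ probe set of GAPDH, a sign of RNA integrity, ran between 10.4 and 11.1 in *MeGRXC15*-OE and between 9.37 and 16.1 in MeGRX360-OE, where line 5 stood apart. Over all probe sets, arrays correlated at 0.967 to 0.985 within *MeGRXC15*-OE, at 0.975 to 0.991 within MeGRX360-OE and at 0.956 to 0.982 between them, so the lines of a group were barely more alike than lines of different groups. Of the leaf markers, *RCA* (rubisco activase) stood at 6875, 8027 and 8038 in *MeGRXC15*-OE and at 8988, 9221 and 9340 in MeGRX360-OE, while the meristem gene *CLV3* stood at 6.05 to 8.30 on the 6 arrays. The other leaf marker measured, *PRK*, is given with carbon fixation below, the guard cell gene *FMA* differed by -0.07, the phloem gene *SWEET11* by -0.53 with overlap, and none of the root, seed or trichome markers chosen has a named probe set. In whole leaves, fewer cells of a type and less RNA per cell cannot be told apart.

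*EXPA8*, which encodes an alpha-expansin, a protein that loosens cell walls during growth, had the largest difference of the 5 called probe sets. It read 62.4, 109.8 and 52.2 in *MeGRXC15*-OE, against 969, 911 and 710.3 in MeGRX360-OE, and 27.6, 73.8 and 169.8 in vector leaves. All MeGRX360-OE lines stood far above every other array, whereas *MeGRXC15*-OE lay within the range of vector leaves. The log2 difference was -3.59 (SE 0.29, 12.1-fold lower, limma adjusted p = 0.0314). Of 14 expansin genes measured, *EXPA8* was the only one called. *EXPA9* (-0.57, SE 0.20) and *EXPA4* (-0.41, SE 0.18) also did not overlap between the groups, both at intensities of 9.48 to 24.2. Thus 3 of the 14 lay below without overlap (21.4%, against 8.58% of all probe sets), and the median of the 14 was -0.04.

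*AT1G76240* fell to 24.7, 24.0 and 24.97 in *MeGRXC15*-OE, against 80.4, 109 and 88.1 in MeGRX360-OE, with 55.9, 65.3 and 79.6 in vector leaves. The *MeGRXC15*-OE lines were nearly identical and lay below all other arrays (log2 difference -1.90, SE 0.14, adjusted p = 0.0314). *AT5G59060* showed the opposite arrangement at the dim end of the array. It read 7.56, 6.91 and 8.07 in *MeGRXC15*-OE, against 22.0, 19.6 and 22.4 in MeGRX360-OE, with 6.85 to 8.64 in vector leaves, so the 3 MeGRX360-OE arrays were again the ones apart (-1.50, SE 0.12, adjusted p = 0.0314). A probe set with no gene name in the tables used here also fell, to 55.6, 54.1 and 44.0 in *MeGRXC15*-OE, against 296, 275 and 204 in MeGRX360-OE (-2.32, SE 0.18, adjusted p = 0.0314). Its vector arrays ran from 63.5 to 270.4, above every *MeGRXC15*-OE array and partly within the range of MeGRX360-OE.

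*AT5G66650* was the only gene that rose. It read 116, 108 and 127 in *MeGRXC15*-OE, against 28.2, 26.1 and 36.7 in MeGRX360-OE (log2 difference 1.96, SE 0.16, 3.89-fold, adjusted p = 0.0314), and 11.4, 13.9 and 13.7 in vector leaves. The 3 groups thus formed 3 separate steps, *MeGRXC15*-OE highest and vector lowest. Of the 5 called probe sets, *EXPA8* alone kept its call when *MeGRXC15*-OE line 9 was left out (adjusted p = 0.0236), and none kept it when any other of the 6 arrays was left out. The differences themselves moved little, between -3.91 and -3.37 for *EXPA8* and between 1.86 and 2.11 for *AT5G66650*.

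**Figure D2:**
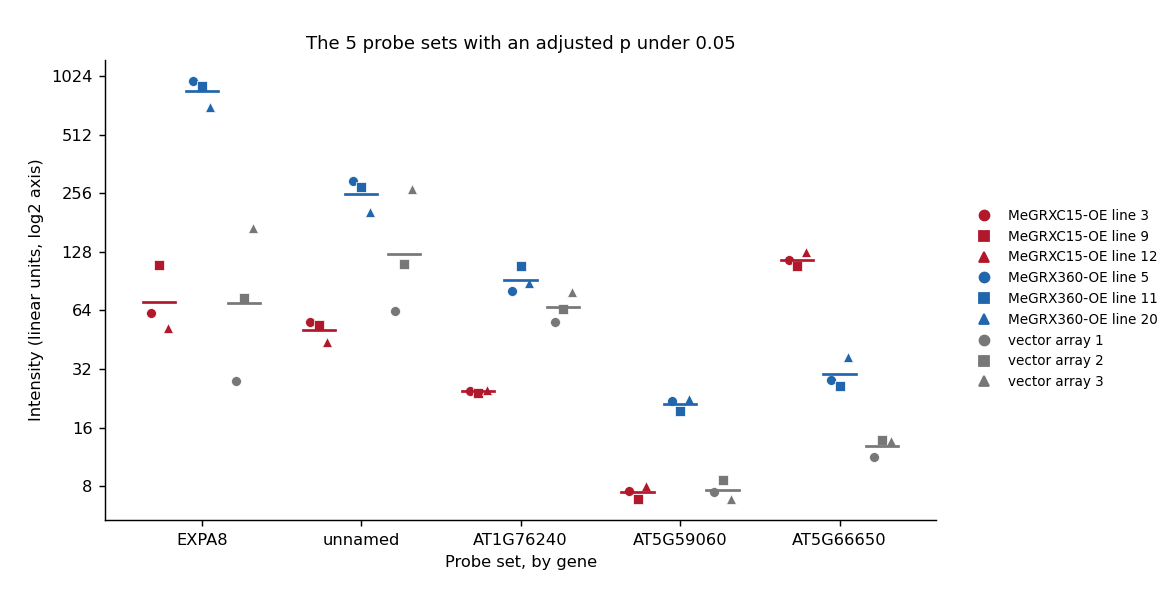
Intensity (linear units on a log2 axis) of the 5 probe sets with an adjusted p under 0.05 on each array, with bars for the geometric mean of 3 arrays. The MeGRX360-OE arrays stand above the *MeGRXC15*-OE arrays in the first 4 and below them in *AT5G66650*; in *EXPA8* and *AT5G59060* the *MeGRXC15*-OE arrays lie at the level of the vector arrays.

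The genes with the next largest moderated t missed the threshold. They were chosen among probe sets with 1 gene name and no overlap between the groups, so the lack of overlap is not a result. On the higher side, *AT5G46080* came closest (23.8, 31.0 and 32.8 in *MeGRXC15*-OE, against 8.23, 9.10 and 9.78 in MeGRX360-OE; log2 difference 1.68, SE 0.16, adjusted p = 0.0557). *AT2G27310* followed, with 206, 221 and 259 in *MeGRXC15*-OE, against 68.8, 67.6 and 92.3 in MeGRX360-OE and 13.9 to 17.4 in vector leaves (1.60, SE 0.17, adjusted p = 0.0774). In both genes, as in *AT5G66650*, the vector leaves stood lowest. *AT1G52720* (1.09), *AT4G19390* (1.15), *AT4G28460* (0.77) and *AT3G51660* (1.08) had adjusted p-values of 0.103 to 0.145. *AT4G30450* differed from these in its relation to vector leaves, with 176, 105 and 161 in *MeGRXC15*-OE, 48.7, 38.6 and 37.3 in MeGRX360-OE and 515 to 566 in vector leaves (1.80, SE 0.22, adjusted p = 0.145). *AT2G37870* (1.03, adjusted p = 0.156) completed this group.

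On the lower side, *AT1G13650* had the largest difference, with 43.0, 38.3 and 20.7 in *MeGRXC15*-OE, against 345, 343 and 168 in MeGRX360-OE and 52.3 to 168 in vector leaves (-3.06, SE 0.38, adjusted p = 0.145). *AT5G02830* had the smallest p of this set (42.6, 35.4 and 37.5 in *MeGRXC15*-OE, against 90.2, 110.0 and 93.5 in MeGRX360-OE; -1.35, SE 0.13, adjusted p = 0.0626). Its vector arrays lay higher still, at 199 to 338. *AT1G60000* (-1.06), *AT5G54130* (-1.60), *AT5G55620* (-1.41) and *AT4G30400* (-1.03) had the same order, with *MeGRXC15*-OE lowest, MeGRX360-OE between and vector leaves highest in their means, at adjusted p-values of 0.0995 to 0.145.

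*HYH*, the homolog of the light-signalling factor *HY5*, was the last of the set with a known name. It read 8.38, 11.1 and 12.6 in *MeGRXC15*-OE, against 26.3, 33.8 and 25.4 in MeGRX360-OE and 40.5 to 152 in vector leaves (-1.42, SE 0.19, adjusted p = 0.145). Both overexpressors stood below vector leaves, and *MeGRXC15*-OE stood lower. *HY5* itself differed by -0.11 (SE 0.20). Of 5 light-signalling genes measured, none was called. The study's own table, whose genes were chosen on these samples, named 4 of the 5. Without overlap, 2 lay below (against 8.58% of all probe sets), *HYH* and *COP1* (-0.39), the ubiquitin ligase that marks HY5 for degradation. *HYH* was itself chosen for its lack of overlap, so its place in this count is not a result.

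Of 148 genes measured in the functional lists, 0 were called by limma (12 with array weights and 2 with the vector arrays in the fit), and 47 had an unadjusted limma p under 0.05. The lists are therefore described by their counts and medians beside the shares of all probe sets above. Genes named through the study's own table were chosen on these samples, so for lists that hold them these shares are no independent background. The list of genes known to respond to touch, wounding and chitin, signals that are perceived within minutes and act through calcium, WRKY and zinc finger factors had the largest share of genes above without overlap among the lists with at least 5 measured genes. Of its 26 genes 14 were measured (6 of them named through the study's own table, which was chosen on these samples), 13 had a positive difference, 11 lay above MeGRX360-OE without overlap (78.6%, against 7.72% of all probe sets) and 4 passed the fold and the unadjusted p (3 to 6 when any array was left out). The median difference was 0.81, and 0.70 to 0.96 when any array was left out. Summed over the 14 genes, the arrays read 15860 to 22670 (*MeGRXC15*-OE), 9389 to 11564 (MeGRX360-OE) and 809 to 1401 (vector), so both overexpressors stood far above vector leaves and differed from each other by less. Line 12 of *MeGRXC15*-OE was the highest array in 11 of the 14 genes.

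*WRKY53*, a regulator of leaf senescence, was the only member of this list among the 10 genes chosen on the higher side. Those were chosen for the largest t among probe sets with 1 gene name and no overlap. It read 1152, 1005 and 1195 in *MeGRXC15*-OE, against 381, 223 and 438 in MeGRX360-OE and 37.4 to 54.7 in vector leaves (log2 difference 1.74, SE 0.25, adjusted p = 0.156). The zinc finger gene *STZ*, which represses transcription under stress, read 2947, 2957 and 3657 in *MeGRXC15*-OE, against 1601, 1652 and 2244 in MeGRX360-OE (0.81, SE 0.17, adjusted p = 0.193). Its relative *RHL41*, known as *ZAT12*, read 1983, 1784 and 2544, against 1101, 906 and 1186 (0.98, SE 0.18, adjusted p = 0.169). In both genes every *MeGRXC15*-OE line exceeded every MeGRX360-OE line, with a mean difference under 2-fold.

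The calmodulin-like calcium sensor *CML37* read 306, 347 and 573 in *MeGRXC15*-OE, against 233, 74.8 and 149.9 in MeGRX360-OE (1.51, SE 0.43, adjusted p = 0.286), and *CML38* read 1627, 2031 and 2360, against 1334, 991 and 1338 (0.71, SE 0.19). The other 5 measured genes with a CML symbol lay between -0.35 and 0.17. Of the ubiquitin ligases that dampen immune signalling, *PUB23* read 539, 708 and 891 in *MeGRXC15*-OE, against 496, 220.5 and 284 in MeGRX360-OE (1.15, SE 0.32, adjusted p = 0.278), *PUB24* differed by 0.66 without overlap, and *PUB22* by 0.24 with overlap. The ethylene response factor genes *AT5G51190* (1.58, SE 0.34) and *ERF104* (0.81, SE 0.27) and *BAP1* (0.94, SE 0.15), a membrane-associated inhibitor of cell death, did not overlap. *AT1G76640* was the only negative member (-0.40), at 8.68 to 16.8 on the 6 arrays.

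Of 15 WRKY genes measured, 9 of them named through the study's own table, 6 lay above MeGRX360-OE without overlap (against 7.72% of all probe sets), and 0 below. The median was 0.53, and it was 0.30 without *MeGRXC15*-OE line 12 and 0.35 without MeGRX360-OE line 5. *WRKY53*, *WRKY40* and *WRKY33* also belong to the touch, wound and chitin list, so the WRKY count is not a separate result. *WRKY53* and *WRKY40* are among the genes without overlap in both counts. *WRKY40*, which encodes a repressor in immunity and ABA signalling, read 2422, 2413 and 4149 in *MeGRXC15*-OE, against 1924, 1662 and 1803 in MeGRX360-OE (0.69, SE 0.23, adjusted p = 0.328), and *WRKY33*, needed for camalexin synthesis, overlapped (0.53, SE 0.31). *WRKY45* (1.40, SE 0.37) and *WRKY48* (1.35, SE 0.35) had the largest differences after *WRKY53*, and *WRKY22* (0.64) and *WRKY25* (0.56) also did not overlap. The remaining WRKY genes ranged from -0.22 for *WRKY60* to 0.60 for *WRKY18*.

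**Figure D3:**
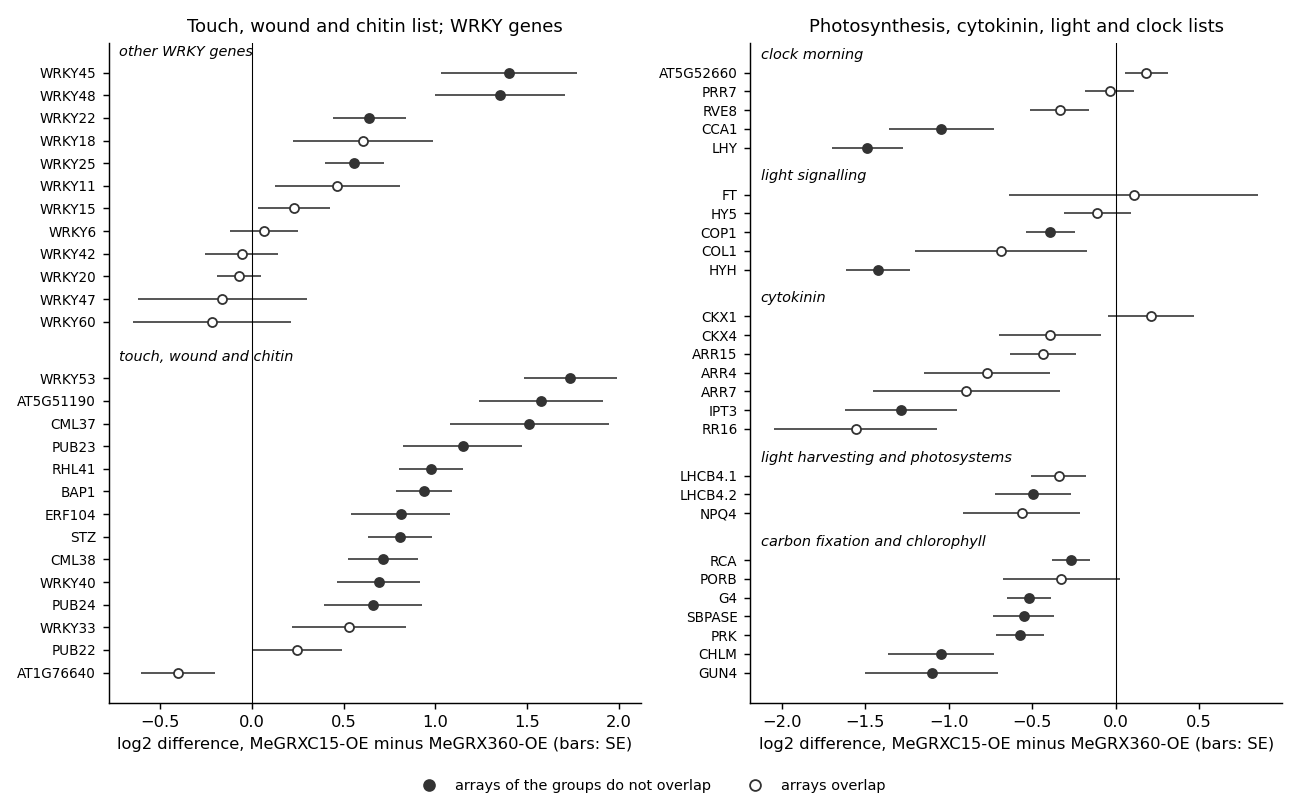
Log2 differences (*MeGRXC15*-OE minus MeGRX360-OE) with SE for the members of 7 lists, with filled points where the arrays of the groups do not overlap. Most touch, wound and chitin genes and several WRKY genes stand to the right of 0, and most photosynthesis, cytokinin and light-signalling genes to the left, while none of these genes had an adjusted p under 0.05.

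Genes for carbon fixation and chlorophyll synthesis stood on the other side. All 7 measured genes, 2 of them named through the study's own table, had a negative difference, 6 lay below MeGRX360-OE without overlap (85.7%, against 8.58% of all probe sets), and the median was -0.55 (-0.64 to -0.43 when any array was left out). The fold and the unadjusted p were passed by 2, but by 0 without *MeGRXC15*-OE line 12, without MeGRX360-OE line 11 or with array weights, and by 1 without MeGRX360-OE line 5 or line 20. *GUN4*, a regulator of the enzyme that inserts magnesium into the chlorophyll precursor, read 762, 775 and 274 in *MeGRXC15*-OE, against 1168, 1312 and 1047 in MeGRX360-OE and 2415 to 2850 in vector leaves (-1.10, SE 0.40, adjusted p = 0.367). *CHLM*, whose methyltransferase acts on the next intermediate, read 972, 1074 and 481, against 1365, 1976 and 1639 (-1.05, SE 0.32, adjusted p = 0.305). Line 12 was the lowest array in both genes, and in 5 of the 7. *PRK*, the kinase that regenerates the carbon dioxide acceptor, read 2204, 2124 and 1803 in *MeGRXC15*-OE, against 2750, 3473 and 2907 in MeGRX360-OE and 4070 to 4596 in vector leaves (-0.57, SE 0.14, adjusted p = 0.238). *SBPASE* (-0.55), *G4* (-0.52) and *RCA* (-0.27) also did not overlap, and *PORB* did (-0.33). The light-harvesting genes *LHCB4.1* and *LHCB4.2* and the photoprotection gene *NPQ4* had differences of -0.34, -0.49 and -0.56.

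Several chloroplast genes outside the lists, chosen after their values were seen, shared this side. *CaS*, a calcium-sensing thylakoid protein, read 649, 693 and 485 in *MeGRXC15*-OE, against 1252, 1460 and 1232 in MeGRX360-OE (-1.12, SE 0.17, adjusted p = 0.156). *FAD5*, a plastid fatty acid desaturase, read 434, 514 and 288, against 981, 1502 and 894 (-1.45, SE 0.28, adjusted p = 0.172), and *VTC4*, an enzyme of ascorbate synthesis, read 161, 165 and 104, against 364, 383 and 299 (-1.31, SE 0.21, adjusted p = 0.156). None of these groups overlapped. *CA1*, the chloroplast carbonic anhydrase, had a large difference that rested on wider lines, with 1371, 1860 and 595 in *MeGRXC15*-OE, against 1911, 4657 and 3833 in MeGRX360-OE (-1.50, SE 0.49, adjusted p = 0.328).

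Genes encoded in the plastid genome varied widely between lines of one group. Of 69 measured, 0 were called, 13 lay below MeGRX360-OE without overlap (18.8%, against 8.58% of all probe sets), 0 above, and 58 had a negative difference, with a median of -0.23. The median was -0.05 without MeGRX360-OE line 11 and -0.50 without MeGRX360-OE line 5. Line 11 had the highest value in 57 of the 69 genes, and line 5, of the same group, the lowest in 31. Line 5 is also the array whose GAPDH ratio stood apart, and its part in these values was not tested. Among the photosystem II genes, 5 of 15 lay below without overlap, as did 2 of 5 photosystem I genes, 2 of 4 genes of the plastid RNA polymerase, 1 of 6 ATP synthase genes and 1 of 15 ribosomal protein genes, and 0 of 10 NDH genes or 6 cytochrome b6f genes. *psbT*, a small photosystem II subunit, had the largest difference, with 242, 99.4 and 231 in *MeGRXC15*-OE, against 1050, 413 and 341 in MeGRX360-OE and 99.2 to 211 in vector leaves (-1.58, SE 0.51, adjusted p = 0.324). *psbA*, the D1 protein of the photosystem II core, read 2950, 2015 and 3251, against 4568, 3909 and 3405 (-0.55, SE 0.21, adjusted p = 0.393).

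**Figure D4:**
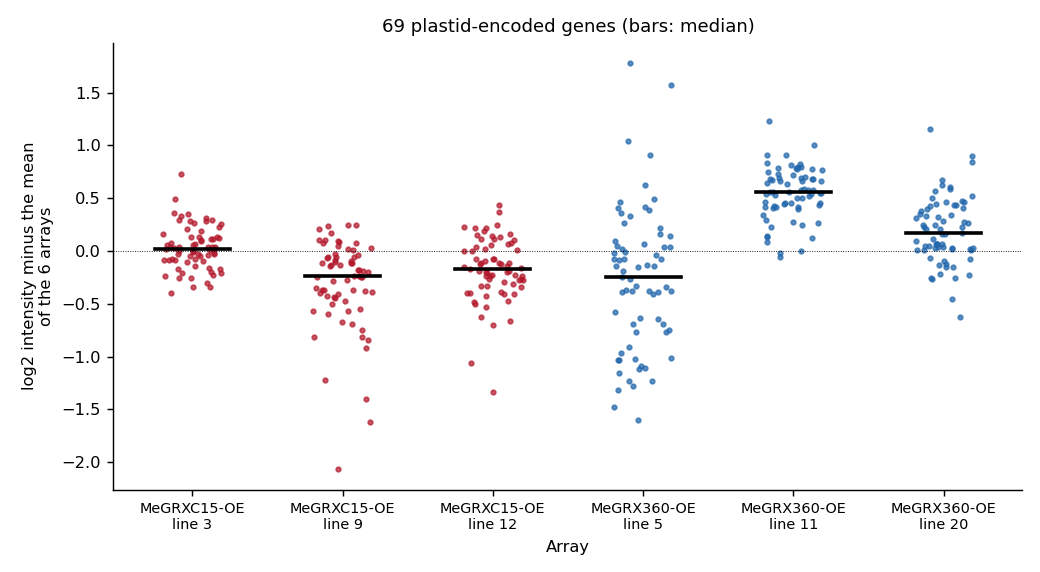
Log2 intensity of 69 plastid-encoded genes on each of the 6 arrays, minus the gene's mean over those arrays, with bars at the median of an array. MeGRX360-OE line 11 has a median of 0.56 and line 5 of the same group -0.24, while the 3 *MeGRXC15*-OE lines lie between -0.24 and 0.02.

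The endogenous CC-type glutaredoxin genes did not separate the groups as a family. Of 47 *Arabidopsis* glutaredoxin proteins listed by the study, 21 carry the CC-type active site, and 18 of these genes were measured. None was called, and *GRX480* alone lay apart without overlap, as 1 of 18, against 16.3% of all probe sets in either direction. Of all 33 glutaredoxin genes measured, 3 lay above (9.09%) and 1 below (3.03%) without overlap, against 7.72% and 8.58% of all probe sets. *GRX480*, a salicylic acid-inducible gene whose protein binds TGA factors, read 493, 659 and 1190 in *MeGRXC15*-OE, against 321, 60.1 and 187 in MeGRX360-OE, and 107, 32.5 and 21.9 in vector leaves (log2 difference 2.25, SE 0.63, unadjusted p = 0.00926, adjusted p = 0.271). The MeGRX360-OE lines spread over more than the gap between the groups. *AT5G18600*, the closest relative of MeGRXC15, was the brightest of the family and had no difference in its mean, with 1213, 1523 and 1072 in *MeGRXC15*-OE, against 671, 1791 and 1657 in MeGRX360-OE, and 610.3 to 790.4 in vector leaves (-0.00, SE 0.38).

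Most other members differed strongly between lines of one group. *AT4G15690* read 277, 443 and 44.8 in *MeGRXC15*-OE, against 17.8, 444 and 105 in MeGRX360-OE (0.91, SE 1.29), and *AT4G15680* read 129, 519.7 and 31.7, against 29.8, 532 and 82.4 (0.23, SE 1.30). *AT4G15660* and *AT4G15700* had SEs of 1.20 and 1.24. In these 4 neighbouring and similar genes, *MeGRXC15*-OE line 9 and MeGRX360-OE line 11 were high and *MeGRXC15*-OE line 12 and MeGRX360-OE line 5 were low; how far their probe sets share transcripts was not tested. *AT2G47880* ran the other way, with 57.1, 111 and 508 in *MeGRXC15*-OE, against 444, 84.9 and 146 in MeGRX360-OE (-0.26, SE 0.90).

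Among the members with larger differences, *AT1G06830* read 31.2, 228 and 49.2 in *MeGRXC15*-OE, against 212, 513 and 252 in MeGRX360-OE (-2.10, SE 0.74, adjusted p = 0.359), and *AT3G62930* read 22.4, 32.1 and 10.6, against 18.9, 120.3 and 84.4 (-1.55, SE 0.73). *AT2G30540* read 42.4, 67.9 and 31.8, against 16.0, 34.3 and 19.7 (1.03, SE 0.36). Each of these overlapped by at least 1 array. *AT5G11930* had a difference of -0.99 (SE 0.47), the flower development genes *ROXY1* and *ROXY2* had 0.16 (SE 0.13) and 0.21 (SE 0.41), and *GRXS13*, *AT4G33040*, *AT3G62950*, *AT3G62960* and *AT1G03020* lay between 0.02 and 0.65 with SEs of 0.59 to 0.96. Among glutaredoxins without the CC site, *AT1G64500* read 83.4, 45.7 and 40.5 in *MeGRXC15*-OE, against 99.8, 199.9 and 184 in MeGRX360-OE (-1.52, SE 0.36, adjusted p = 0.220), and the abundant *GRXC2* differed by 0.07. No TGA factor gene had a named probe set.

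**Figure D5:**
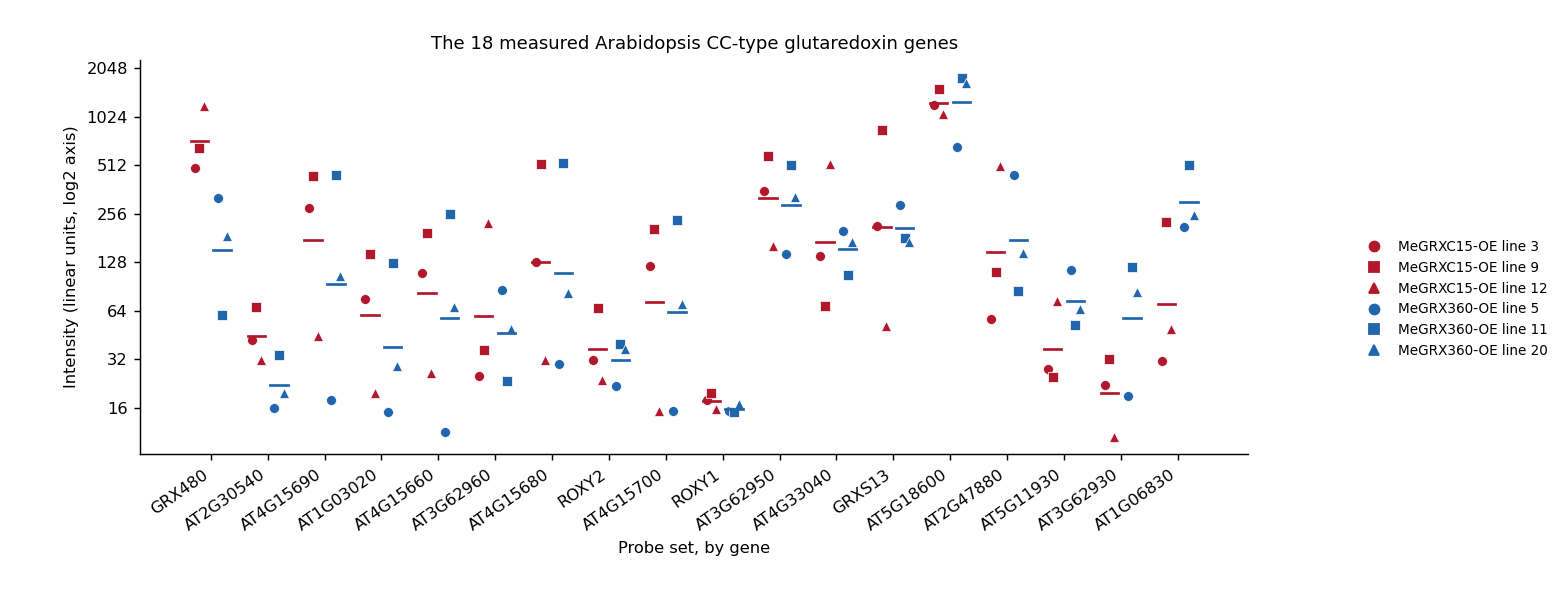
Intensity (linear units on a log2 axis) of the 18 measured *Arabidopsis* CC-type glutaredoxin genes on the 6 arrays, ordered by the difference between the groups, with bars for the geometric mean of 3 lines. Only *GRX480* shows no overlap, and in the *AT4G15660* to *AT4G15700* genes the lines of each group are spread over a wider range than the groups.

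Hormone lists held small numbers of measured genes. Of 7 cytokinin genes, 5 of them named through the study's own table, 6 had a negative difference and 1 lay below without overlap (14.3%, against 8.58% of all probe sets). Their median of -0.77 was -0.39 without *MeGRXC15*-OE line 12 and -0.51 without MeGRX360-OE line 11. The gene without overlap, *IPT3*, an enzyme of cytokinin synthesis, read 29.7, 40.8 and 27.3 in *MeGRXC15*-OE, against 48.0, 119 and 84.1 in MeGRX360-OE (-1.29, SE 0.34, adjusted p = 0.248). The response regulators *ARR4* (-0.77), *ARR7* (-0.90), *ARR15* (-0.44) and *RR16* (-1.56) overlapped between the groups. Of 4 auxin genes, 2 lay above without overlap (against 7.72% of all probe sets), *WES1* and *GH3.3*. Both encode amido synthetases, enzymes that conjugate auxin to amino acids. *WES1* read 157, 103 and 151 in *MeGRXC15*-OE, against 84.7, 29.3 and 34.5 in MeGRX360-OE (1.61, SE 0.41, adjusted p = 0.242). The auxin-induced growth genes *SAUR63* and *SAUR15*, chosen after their values were seen, lay on the other side (-1.97, SE 0.45 and -1.56, SE 0.32, adjusted p = 0.212 and 0.190).

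Of 6 jasmonate genes, 3 lay above without overlap and 1 below (against 7.72% and 8.58% of all probe sets). The study's own table named 3 of the 6. *LOX4*, a lipoxygenase of jasmonate synthesis, read 551, 581 and 1120 in *MeGRXC15*-OE, against 469, 406 and 350.2 in MeGRX360-OE (0.81, SE 0.29, adjusted p = 0.361), and *TIFY7*, the repressor known as JAZ9, differed by 0.62 (SE 0.20). Of the MYC factors that JAZ repressors hold, *MYC3* stood at 0.56 (SE 0.22) and *MYC4* at -0.56 (SE 0.28). The largest difference of the list was that of *JMT*, which methylates jasmonic acid, with overlap (-1.06, SE 0.48, adjusted p = 0.468). Of 7 genes of the ABA response, 6 had a positive difference and 1 lay above without overlap (14.3%, against 7.72% of all probe sets). Of the 7, 6 were named through the study's own table. Their median was 0.52 (0.34 to 0.94 when any array was left out) and their largest difference 1.29. The fold and the unadjusted p were passed by 1 gene, and by 0 to 3 when any array was left out. The gene without overlap, *CYP707A3*, an enzyme of ABA breakdown, read 1413, 1403 and 2016 in *MeGRXC15*-OE, against 906, 989 and 1367 in MeGRX360-OE and 20.5 to 93.1 in vector leaves (0.57, SE 0.22, adjusted p = 0.387).

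Of 5 morning clock genes measured, 2 lay below MeGRX360-OE without overlap (against 8.58% of all probe sets). Of 4 evening genes, 2 lay above (against 7.72%). The study's own table named 4 of the 5 morning and 3 of the 4 evening genes. Of the morning genes, 2 passed the fold and the unadjusted p. Only 1 did so with array weights, without *MeGRXC15*-OE line 9 or without MeGRX360-OE line 11. Of the evening genes 1 passed both, and 0 without *MeGRXC15*-OE line 12, MeGRX360-OE line 11 or MeGRX360-OE line 20. *LHY*, a dawn-expressed repressor of the clock, read 51.7, 31.8 and 34.0 in *MeGRXC15*-OE, against 126, 102 and 96.0 in MeGRX360-OE and 1154 to 1376 in vector leaves (-1.49, SE 0.21, adjusted p = 0.156). Its partner *CCA1* read 140.4, 63.2 and 117, against 219.7, 250.3 and 166 (-1.04, SE 0.32, adjusted p = 0.300), with 793 to 929 in vector leaves. Both lay far below vector leaves in both overexpressors, and no hour of harvest was found in the labels or methods. The evening genes *GI* (0.56, SE 0.22) and *PRR3* (1.07, SE 0.27) did not overlap, while *PRR5* (0.09) did, as did *PRR7* (-0.04) of the morning list.

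Of 11 genes of the dark and sugar starvation list, 2 lay above without overlap (against 7.72% of all probe sets). The study's own table named 7 of the 11. Both the fold and the unadjusted p were passed by 2 genes, and by 1 to 3 when any array was left out. *ASN1*, an asparagine synthetase that is induced in the dark, read 579, 425 and 136 in *MeGRXC15*-OE, against 84.1, 30.2 and 34.5 in MeGRX360-OE and 13.5 to 84.4 in vector leaves (2.86, SE 0.61, adjusted p = 0.190). *IVD*, an enzyme of leucine breakdown, read 210.2, 220.4 and 159.8, against 91.8, 92.0 and 114 (0.98, SE 0.17, adjusted p = 0.161). The brightest member, *SEN1*, read 4511, 6935 and 2102, against 2145, 1469 and 1731, and overlapped by 1 array (1.20, SE 0.42). The median of the list was 0.33, and 0.61 without *MeGRXC15*-OE line 12. Chosen after its values were seen, *DYL1*, a dormancy-associated gene, read 639, 864 and 585, against 289.9, 131 and 185 (1.84, SE 0.30, adjusted p = 0.156).

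In the TBL, SWEET and UDP-glycosyltransferase families, medians lay near 0 and single genes had large differences. Of 22 genes of the TBL family, which acetylates wall polysaccharides, the median was -0.09 (-0.13 to -0.06 when any array was left out), yet *TBL38* read 829, 439 and 1020 in *MeGRXC15*-OE, against 166, 207 and 218 in MeGRX360-OE and 182 to 191 in vector leaves (1.88, SE 0.31, adjusted p = 0.156), so here the *MeGRXC15*-OE lines were the ones apart. *TBL45* had the opposite sign with overlap (-1.87, SE 0.55). Of 14 SWEET sugar transporter genes, 4 lay below without overlap (28.6%, against 8.58% of all probe sets) and 0 above. Their median of -0.19 was 0.01 without MeGRX360-OE line 11 and -0.08 without *MeGRXC15*-OE line 9. *SWEET2* had the largest difference (-1.42, SE 0.38) at 6.76 to 38.1. *OPT3*, a transporter of iron signals in the phloem, read 159.6, 116 and 92.0, against 233, 388 and 202 (-1.14, SE 0.30, adjusted p = 0.248). Of 47 UDP-glycosyltransferase genes, 5 lay above (10.6%) and 2 below (4.26%) without overlap, against 7.72% and 8.58% of all probe sets, with a median of 0.04 (0.00 to 0.08 when any array was left out), and *UGT73B5* (1.19, SE 0.29) and *UGT73B1* (1.16, SE 0.33) had the largest differences. Genes often used as references had differences of -0.00 to 0.22 in 3 genes, of which 1 lay above without overlap (33.3%, against 7.72% of all probe sets).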

How the data were processed

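The authors deposited 1 table of 9 arrays, with a linear intensity for every probe set, already summarised and normalized. The submitters' processing notes name RMA, and no source used here gives its version, its background step or how log2 values were returned to the linear scale. The array medians were 28.0 to 29.3 in *MeGRXC15*-OE and 28.6 to 29.2 in MeGRX360-OE, and no further normalization was applied. From there, log2 was taken, 64 control probe sets were left out, and limma 3.58.1 in R 4.3.3 (lmFit and eBayes) was fitted to 22746 probe sets of the 6 arrays, with Benjamini-Hochberg adjustment over all of them. Steps were tested on simulated data.

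The members and gene lists were chosen with earlier results of these data known. The platform annotation named 1 gene for 13513 probe sets, and 503 with several genes were left unnamed. A further 353 were named through the study's ontology table, whose genes the study chose on these samples and which is therefore not independent. In the text, these are *SAUR63*, *SAUR15*, *CA1*, *LHY*, *CCA1*, *FAD5*, *IPT3*, *OPT3*, *GUN4*, *ARR7*, *ARR4*, *4CL1*, *NPQ4*, *G4*, *COP1*, *HY5*, *PRR3*, *PRR5*, *PRR7*, *GRXS13*, *RD22*, *CYP707A3*, *TIFY7*, *LOX4*, *ERF104*, *BAP1*, *RHL41*, *SEN1*, *DYL1*, *ASN1*, *AT5G51190* and the WRKY genes other than *WRKY53* and *WRKY22*. Genes named were the 10 with the largest moderated t in each direction that have 1 gene name and no overlap (since fewer than 10 were called), the 3 brightest members of each list and all measured CC-type glutaredoxin genes. All other genes in the text were picked once their values were known, among them *ASN1*, *IVD*, *CML37*, *RHL41*, *PUB23*, *GUN4*, *CHLM*, *GH3.3*, *TBL38*, *CaS*, *FAD5*, *VTC4*, *CA1*, *psbT*, *psbA*, *DYL1*, *DFR* and the UGT, SWEET, SAUR and remaining WRKY genes. The PUB, SWEET and TBL families were added after the data were seen. Replicate numbers were not used to pair the lines in the main fit. Alternatives were a replicate block, further quantile normalization, median centring, leaving out the dimmest 40% of probe sets, all 9 arrays, an intensity trend, array weights and leaving out each array. Tables were joined and drawn with Python 3.11.15, pandas 2.3.3, numpy 2.4.6, Biopython 1.88 and matplotlib 3.10.9. The third group was not analysed further here.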

Additional observations from a re-analysis of the deposited data

How the results depend on the processing

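The 5 calls rest on 3 lines a group. Leaving out each array gave 0 to 2 called probe sets, and 323 to 732 over 2-fold at the unadjusted p, with the highest number without *MeGRXC15*-OE line 9. Without MeGRX360-OE line 5 there were 679, of which 45.4% were higher in *MeGRXC15*-OE, against 55.7% on all 6 arrays. Array weights gave 256 calls (109 higher, 147 lower, all 5 included), and all 9 arrays in the fit gave 33 (13 higher, 20 lower, 3 of the 5 included). Among genes of the lists these settings called 12 and 2, and every other setting 0. The cause was not tested. With the replicate number as a block 1 probe set was called, *AT1G13650*, and none of the 5, and 517 passed the fold and the unadjusted p. Deviations of lines with the same number correlated at -0.02, 0.13 and 0.07, and those of lines with different numbers at -0.17 to 0.09. With 3 lines in each group, these values cannot decide whether the numbers pair the lines. Further quantile normalization and median centring kept the same 5 calls, the intensity trend gave 7, and leaving out the dimmest probe sets gave 4 of 13647. The adjusted p over these alternatives was 0.00898 to 0.297 for *EXPA8* and 0.00634 to 0.297 for *AT5G66650*. The direction of the 5 did not change under any of them. The signals of *AT5G59060*, *HYH* and *SWEET2* lie near the dim end of the array, which limits their precision.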

Other observations

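The plant defensin genes, which respond to jasmonate and ethylene, varied between lines of both groups by more than any gene described above. *PDF1.2* read 3410, 5617 and 7.89 in *MeGRXC15*-OE, against 50.9, 401 and 4902 in MeGRX360-OE, with 7.03 to 7.61 in vector leaves (log2 difference 0.20, SE 2.76, limma adjusted p = 0.987). *PDF1.2b*, whose probe set can also bind related transcripts, read 4212, 5997 and 36.0, against 341, 1280 and 6044 (-0.51, SE 2.05). Lines 3 and 9 of *MeGRXC15*-OE and line 20 of MeGRX360-OE were high, and line 12 of *MeGRXC15*-OE stood at the level of vector leaves.

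Line 12 stood apart in other genes too. *DFR*, an enzyme of anthocyanin synthesis, read 7.58, 10.5 and 115 in lines 3, 9 and 12 of *MeGRXC15*-OE, against 10.6, 9.88 and 8.20 in MeGRX360-OE (1.14, SE 0.96), and *UF3GT*, a glycosyltransferase of the same pathway, read 22.6, 24.1 and 98.5, against 21.3, 20.1 and 22.2 (0.83, SE 0.54), where all 3 arrays of *MeGRXC15*-OE lay above, lines 3 and 9 only slightly. Of 8 phenylpropanoid and flavonoid genes the median was -0.58, but -0.25 without *MeGRXC15*-OE line 9 and -0.37 without MeGRX360-OE line 11. *4CL1*, at the entry to the pathway, lay below without overlap (-0.82, SE 0.25).

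Line 9 of *MeGRXC15*-OE was the low one among cold and ABA-responsive genes. *COR15A*, a protein that protects chloroplast membranes from freezing, read 1042, 131 and 859 in *MeGRXC15*-OE, against 199, 262 and 199 in MeGRX360-OE and 1262 to 2981 in vector leaves (1.17, SE 0.75), and *RD22* read 1706, 351 and 1608, against 420.3, 1177 and 964 (0.34, SE 0.68). *COR15B* did not overlap (887, 483 and 1101, against 459, 252 and 292; 1.27, SE 0.35, adjusted p = 0.271).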
